A study of Mus musculus with 40 samples.

Results

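Captan and folpet are fungicides that carry the same reactive trichloromethylthio group on an imide nitrogen. The imide of captan belongs to a partly saturated ring, and that of folpet is an aromatic phthalimide. The group described here holds every library labelled with either compound, 28 of the 40 in the study: 7 each from Captan 6000ppm, Captan 12000ppm, Folpet 6000ppm and Folpet 16000ppm, given in the diet. Membership was set by the labels alone. These were set against 5 controls, with each of the 4 exposed groups given equal weight. Each compound's own mean is given beside the pooled value for some genes, and most other changes below are the pooled value alone. All animals were wildtype male B6C3F1 mice, and exposures lasted 28 days, per the labels; age is not given in them. The remaining 7 libraries came from mice given CrVI 180ppm in drinking water and are compared with the fungicides in 1 comparison. They also entered the low-count filter, the scaling and the shared estimate of spread in the main fit of all 40 libraries. RNA came from fixed, paraffin-embedded duodenum and was measured by TempO-Seq, an assay that ligates and counts pairs of probes for a chosen set of transcripts. Whether each library is its own mouse is not stated, and p-values therefore refer only to variation from library to library.

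Both compounds react with thiols such as the cysteine of glutathione. Cells that meet such electrophiles usually raise a set of genes under the transcription factor NRF2, which supply glutathione, join it to foreign molecules and reduce quinones, aldehydes and peroxides. The duodenal lining is renewed from dividing crypt cells, and its mature enterocytes absorb nutrients and metabolise compounds from the diet.

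The table held 3045 probes for 2756 symbols, of which 2541 probes had enough counts to test. Library totals ran from 1763440 to 7904819 counts. Levels are given in CPM, the counts of a probe scaled to a common library total with TMM factors, and changes as log2 fold changes with their standard error (SE). A probe is said to have risen, fallen or passed where the adjusted p of edgeR's quasi-likelihood test (Benjamini-Hochberg over all tested probes, 2-sided) was under 0.05. Enterocyte transcripts were plentiful in the labelled tissue: Fabp2, an intestinal fatty acid binding protein, stood at 11243 CPM or more in every control and 25961 CPM or more in every exposed library. Acinar transcripts of the pancreas, which encode digestive enzymes, were plentiful as well. The 19 acinar probes held 49.0% ± 22.5 (SD, n = 5) of counts in controls and 19.0% ± 14.99 (SD, n = 28) in exposed libraries, a difference of -30.0 percentage points (exact 2-sided permutation test over libraries, p = 0.00124). Shares overlapped, from 21.2% to 77.6% in controls and from 1.22% to 54.2% after exposure. Without the libraries over 50%, the difference was -16.2 points (exact permutation p = 0.0549). That step drops libraries by the share itself, 2 of the 5 controls and 1 of the 28 exposed, so it cannot check the shift. The part of this shift in the results below was not tested as a cause, and values with it as a covariate are given beside many of the calls that it ends. In bulk tissue, fewer cells of a type and less RNA per cell cannot be told apart.

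The promoters of the genes that rose most are shown first, since NRF2 and its partners bind a short element whose core is TGANNNNGC, or GCNNNNTCA on the other strand. In the 250 bases before the start of a gene, RefSeq sequence of the build GRCm38.p6 held this core in 35.2% of 32851 promoters. It occurred for 6 of the 12 largest rises shared by both compounds, all 12 of which had a promoter, and for 5 of the 7 largest shared falls that had one. A stricter form, TGACNNNGC or GCNNNGTCA, occurred in 10.2% of all promoters and, among the 12, in that of Gsta3 alone. Those of Cyp2a5 (chr7:26835089-26835338, plus strand), Slc7a11 (chr3:50443614-50443863, minus strand), Ces1g (chr8:93337210-93337459, minus strand) and Gsta3 (chr1:21240335-21240584, plus strand) are printed in gene direction, with matches in capitals. A match is only a match of letters.
Cyp2a5: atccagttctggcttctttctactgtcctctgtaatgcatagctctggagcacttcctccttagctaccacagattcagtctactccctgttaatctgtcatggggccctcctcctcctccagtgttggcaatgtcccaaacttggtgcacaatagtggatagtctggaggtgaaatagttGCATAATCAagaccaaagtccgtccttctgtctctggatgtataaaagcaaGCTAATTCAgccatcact
Slc7a11: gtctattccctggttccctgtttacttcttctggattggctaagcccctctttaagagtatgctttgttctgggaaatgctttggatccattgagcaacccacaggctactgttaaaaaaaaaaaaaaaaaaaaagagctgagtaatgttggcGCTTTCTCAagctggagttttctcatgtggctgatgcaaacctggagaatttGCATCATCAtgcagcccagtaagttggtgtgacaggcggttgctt
Ces1g: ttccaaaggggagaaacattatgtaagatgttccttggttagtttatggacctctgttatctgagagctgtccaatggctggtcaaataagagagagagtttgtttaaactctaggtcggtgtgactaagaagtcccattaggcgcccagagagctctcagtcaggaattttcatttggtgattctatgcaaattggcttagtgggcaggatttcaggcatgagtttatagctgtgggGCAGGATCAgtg
Gsta3: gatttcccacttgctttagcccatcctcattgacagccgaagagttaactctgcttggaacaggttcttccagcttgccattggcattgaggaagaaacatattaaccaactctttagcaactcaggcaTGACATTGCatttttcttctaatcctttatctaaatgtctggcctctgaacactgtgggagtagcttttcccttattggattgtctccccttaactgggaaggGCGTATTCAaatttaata

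In the pooled comparison with controls, 328 probes passed (12.9% of those tested), of which 189 were higher (7.44%) and 139 lower (5.47%) after exposure. The captan mean gave 228 (8.97%), with 148 higher (5.82%) and 80 lower (3.15%) and the folpet mean 296 (11.6%), with 182 higher (7.16%) and 114 lower (4.49%). The response shared by both compounds was taken as the probes that passed in all 3 of these comparisons in 1 direction: 129 rose and 55 fell. The 3 comparisons share their controls and the pooled one is built from the others, so this overlap describes the selection and is not independent evidence. Libraries differed in how fully they showed it. Of the 129 rises, an exposed library had between 64 and 125 above the highest control, with a median of 110. The 129 were chosen as higher than these same controls, so high numbers follow from the choice. Only the differences between libraries are described here. Captan 6000ppm replicate 2 had the fewest, 64, and it was also the shallowest library of all, at 1763440 counts. Captan 12000ppm replicates 2 and 1 followed, with 78 and 83, at 3281307 and 4336995 counts. In Folpet 16000ppm the count was between 108 and 125. Across all tested probes, 11 (0.433%) were above every control in all 28 exposed libraries and 4 (0.157%) were below.

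Enzymes that metabolise foreign compounds led the shared rises. Cyp2a5, a cytochrome P450 of the Cyp2a family, was at 0 in all 5 controls and all 7 Cr(VI) libraries, and above 0 in 24 of the 28 exposed libraries. Its lowest, median and highest levels were 0, 13.0 and 38.8 CPM in Captan 6000ppm, 0, 7.23 and 85.5 CPM in Captan 12000ppm, 0, 33.1 and 67.8 CPM in Folpet 6000ppm, and 8.80, 24.8 and 49.3 CPM in Folpet 16000ppm. Folpet 16000ppm was the 1 group with no library at 0. Against a floor of 3 counts per library in the controls, the pooled mean of 25.6 CPM was at least 23.2-fold higher, unless low counts were removed before deposit, which the sources used here do not say. Ces1g, a carboxylesterase that cleaves ester bonds, stood at 165.3, 26.4, 72.5, 45.8 and 0 CPM in the controls. Its median was 544 CPM in Captan 6000ppm, 849 CPM in Captan 12000ppm, 788 CPM in Folpet 6000ppm and 1370 CPM in Folpet 16000ppm. The pooled log2 rise of Ces1g was 3.73 ± 0.68 (SE; edgeR adjusted p = 0.000204), with 3.35 for captan and 4.12 for folpet. Captan 12000ppm replicates 1 and 2, at 61.8 and 33.7 CPM, lay inside the control range, and the other 26 exposed libraries lay above it. By limma-voom, another test of the same counts, Ces1g did not pass (log2 3.92, adjusted p = 0.184). Ephx1, the microsomal epoxide hydrolase, rose by 2.56 ± 0.50 on the log2 scale, with 2.55 for captan and 2.58 for folpet.

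Of 27 tested xenobiotic receptors, cytochromes, esterases and transporters, 9 rose and 0 fell, with a median log2 change of 0.81 against -0.03 over all tested probes. Of all tested probes 7.44% rose and 5.47% fell, and these shares stand beside this count and each list count below. Nr1i3, the receptor CAR that senses foreign compounds, ranged from 175 to 447 CPM in controls and from 443 to 1033 CPM after exposure, and rose by 1.33 ± 0.15. Por, which passes electrons to cytochromes P450, rose by 1.21 ± 0.17, Abcb1a, an efflux pump, by 1.31 ± 0.22, and Fmo5, a flavin monooxygenase, by 1.01 ± 0.14. With the acinar share as a covariate 7 of the 27 rose, and 7 of 30 without the libraries over 50% acinar.

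Genes of glutathione supply were among the shared rises. Slc7a11, the transporter that brings in cystine for glutathione synthesis, stood at 5.20, 25.3, 7.39, 16.8 and 27.0 CPM in controls. Its lowest, median and highest levels were 14.9, 83.2 and 521 CPM in Captan 6000ppm and 7.23, 276 and 1142 CPM in Captan 12000ppm. They were 36.4, 106 and 744 CPM in Folpet 6000ppm and 278, 498 and 737 CPM in Folpet 16000ppm. Every folpet library was above every control, whereas 4 of the 14 captan libraries were not. The pooled log2 rise of Slc7a11 was 4.12 ± 1.15 (SE, edgeR adjusted p = 0.0131), with 3.93 for captan and 4.32 for folpet. Without the libraries over 50% acinar it was 4.32 and did not pass (adjusted p = 0.0577). Nor did Slc7a11 pass by limma-voom (log2 3.82, adjusted p = 0.392) or with only the 6000 ppm groups (log2 3.45, edgeR adjusted p = 0.0511). Of 7 tested genes of cystine uptake, glutathione synthesis and recycling, 5 rose and 0 fell, with a median of 0.98; 3 rose without the libraries over 50% acinar. Gsr, which returns oxidised glutathione to its reduced form, ranged from 377 to 766 CPM in controls and from 784 to 3438 CPM after exposure, with no overlap, and rose by 1.64 ± 0.28. Gclc and Gclm, the catalytic and modifier subunits of the rate-limiting enzyme of glutathione synthesis, rose by 1.81 ± 0.52 and 0.98 ± 0.22, and Cth, which makes cysteine from cystathionine, by 0.63 ± 0.14. Gclc did not pass with the acinar share as a covariate (log2 1.51, adjusted p = 0.0762) or by limma-voom (log2 2.30, adjusted p = 0.123).

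The alpha-class glutathione transferases, which join glutathione to electrophiles, rose with both compounds. Gsta2 stood at 387.9, 104.1, 188.2, 243.0 and 277.4 CPM in controls, and its lowest, median and highest levels were 426, 2457 and 4581 CPM in Captan 6000ppm, 598, 3821 and 5250 CPM in Captan 12000ppm, 1677, 3095 and 4419 CPM in Folpet 6000ppm, and 2889, 4580 and 5694 CPM in Folpet 16000ppm. No exposed library overlapped the controls. Gsta2 rose by 3.73 ± 0.49 on the log2 scale (edgeR adjusted p = 1.68e-06), with 3.52 for captan and 3.94 for folpet. Gsta1 rose by 2.58 ± 0.36 and Gm3776, a further alpha-class gene, by 2.61 ± 0.38, each above every control in 27 of 28 libraries. Gm3776 stood at 5764, 1692, 2420, 6614 and 2569 CPM in controls; only Captan 6000ppm replicate 2, at 5113 CPM, fell inside that range. Gsta3 stood at 10.8, 0, 0, 3.77 and 0 CPM in controls and between 6.99 and 92.0 CPM after exposure, a rise of 3.72 ± 1.05 that did not pass without the libraries over 50% acinar (log2 3.47, adjusted p = 0.0574). Probes for these near-identical genes may share signal, so each is uncertain as a single gene. Of 16 tested conjugating enzymes, 10 rose and 0 fell, with a median of 0.86; 6 rose with the acinar covariate, and 6 without the libraries over 50%. Gstp1, the pi-class transferase, rose by 0.91 ± 0.18.

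**Figure D1:**
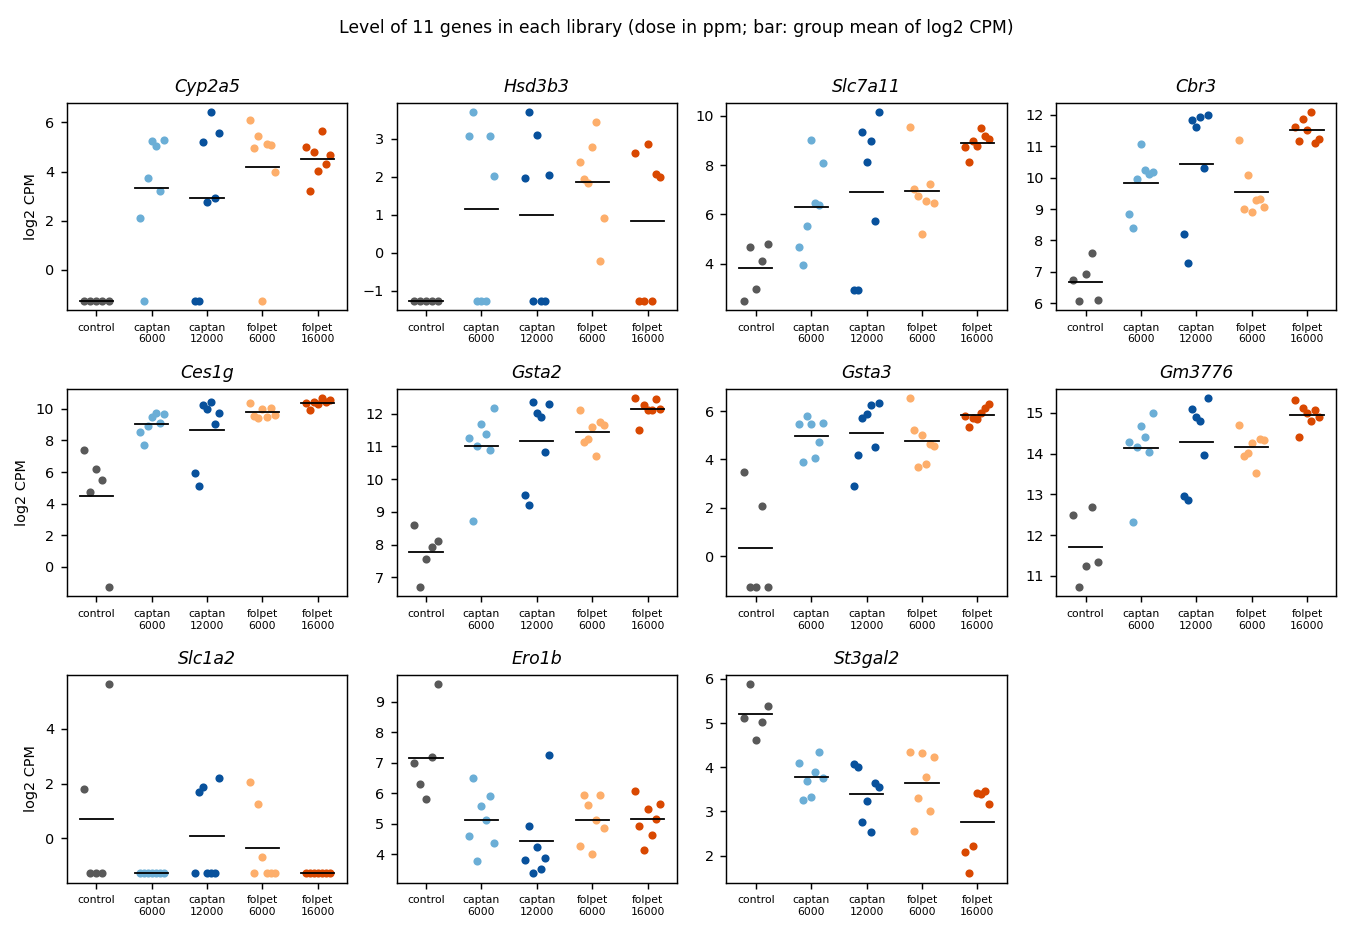
Level of 11 genes in each control, captan and folpet library, as log2 CPM on the vertical axis; points are libraries and the bar is the group mean of log2 CPM. All exposed libraries lie above all controls for Gsta2 and below all controls for St3gal2. The lowest points on a panel are libraries at 0 counts for Cyp2a5, Hsd3b3, Slc1a2, Ces1g and Gsta3.

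Enzymes that act on reactive carbonyls and aldehydes rose as well, as did genes of NADPH and UDP-sugar supply. Cbr3, a carbonyl reductase, stood at 105.4, 67.2, 123.1, 192.2 and 68.5 CPM in controls, with medians of 1122 CPM in Captan 6000ppm, 3131 CPM in Captan 12000ppm, 629 CPM in Folpet 6000ppm and 2912 CPM in Folpet 16000ppm. It rose by 3.85 ± 0.61 on the log2 scale (edgeR adjusted p = 3.08e-05), with 3.82 for captan and 3.87 for folpet. In Captan 12000ppm, replicates 1 and 2 were at 293 and 154 CPM against 1259 to 4084 CPM in the other 5, and only replicate 2 overlapped the controls. Of 11 tested quinone, carbonyl, aldehyde and epoxide enzymes, 7 rose and 0 fell, with a median of 1.01; the aldehyde dehydrogenases Aldh2 and Aldh3a2 rose by 0.95 ± 0.16 and 0.94 ± 0.13. The same number, 7, rose without the libraries over 50% acinar, and 6 with the acinar covariate. Of 4 tested genes of NADPH and UDP-sugar supply 3 rose: Ugdh, which makes UDP-glucuronate, by 1.96 ± 0.27, Me1, malic enzyme, by 1.46 ± 0.23, and Taldo1, transaldolase, by 1.22 ± 0.16.

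Of 17 tested genes of peroxide removal and the thioredoxin system 6 rose and 0 fell, with a median of 0.58; 4 rose without the libraries over 50% acinar. Cat, catalase, ranged from 564 to 1199 CPM in controls and from 1428 to 2757 CPM after exposure, with no overlap, and rose by 1.24 ± 0.15. Txnrd1, thioredoxin reductase, rose by 1.10 ± 0.25, Srxn1, sulfiredoxin, by 1.24 ± 0.28, and Prdx1, a peroxiredoxin, by 0.81 ± 0.16. Srxn1 did not pass without the libraries over 50% acinar (log2 1.06, edgeR adjusted p = 0.0841). Of 9 tested regulators of the NRF2 pathway 2 rose, Maff, a small MAF partner, by 1.28 ± 0.24 and Osgin1, an oxidative stress induced gene, by 0.89 ± 0.23.

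Outside detoxification, the genes that rose with both compounds included Capg (2.58 ± 0.52 on the log2 scale), which caps actin filaments, and Tubb2a, a beta-tubulin, at 2.05 ± 0.51. Tubb2a did not pass without the libraries over 50% acinar (log2 1.48, adjusted p = 0.0781) or by limma-voom (log2 2.34, adjusted p = 0.154). Hsd3b3, a steroid dehydrogenase, was at 0 in all 5 controls and above 0 in 19 of 28 exposed libraries, with medians between 3.44 and 3.65 CPM in the 4 groups; its call was lost when any 1 control was left out. Of 21 tested genes of hypoxia and glycolysis, 7 rose and 0 fell, with a median of 0.60, and 8 rose without the libraries over 50% acinar. Bnip3, a mitochondrial protein of hypoxia, rose by 2.03 ± 0.38, Aldoa, aldolase, by 1.02 ± 0.18, Car9, a carbonic anhydrase, by 0.94 ± 0.21 and Tpi1, triosephosphate isomerase, by 0.77 ± 0.14.

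Of 15 tested enterocyte genes 6 rose and 0 fell, with a median of 0.46; 3 rose with the acinar covariate and 4 without the libraries over 50%. Klf4, a transcription factor of differentiated epithelium, ranged from 37.8 to 240 CPM in controls and from 248 to 510 CPM after exposure, and rose by 1.48 ± 0.22. Apoa1, an apolipoprotein, rose by 0.92 ± 0.20, Krt8, a keratin, by 0.66 ± 0.12, and Fabp2 by 0.71 ± 0.17. Fabp2 did not pass with the covariate (log2 0.55, edgeR adjusted p = 0.0551) or without the libraries over 50% acinar (log2 0.48, adjusted p = 0.0875). Of 21 tested genes of fatty acid uptake and oxidation 5 rose and 1 fell, with a median of 0.27. Of all tested probes 7.44% were higher and 5.47% lower, so the share that fell is near the background. With the acinar covariate 3 of the 21 rose and 0 fell, with a median of 0.08. Under scaling by library totals alone 2 rose. Eci1, an enoyl-CoA isomerase, rose by 0.78 ± 0.18 and Creb3l3, a membrane-bound transcription factor of liver and gut, by 0.94 ± 0.14.

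The shared falls included Cd74 and H2-Aa of antigen presentation, and myeloid and contractile genes. Cd74, the invariant chain that carries MHC class II molecules, ranged from 8371 to 25588 CPM in controls, from 3306 to 12158 CPM with captan and from 2016 to 11788 CPM with folpet. It fell by 1.64 on the log2 scale (SE 0.22; edgeR adjusted p = 8.54e-07), with -1.50 for captan and -1.77 for folpet, and 25 of 28 exposed libraries were below every control. H2-Aa, an MHC class II alpha chain, changed by -1.76 ± 0.30, with -3.01 in Folpet 16000ppm beside -1.19, -1.54 and -1.32 in Captan 6000ppm, Captan 12000ppm and Folpet 6000ppm. These were the 2 of 6 tested MHC class II genes that fell; 0 rose, and the median of the 6 was -0.10. Of 11 tested myeloid markers 4 fell, among them the complement genes C1qc (-0.76 ± 0.16, below every control in all 28 libraries) and C1qb (-0.68 ± 0.15), with a median of -0.68; 3 fell without the libraries over 50% acinar. Under scaling by library totals alone 1 of the 11 myeloid markers fell, and C1qc and C1qb did not pass (edgeR adjusted p = 0.361 and 0.352). Fcgr3, an Fc receptor, changed by -1.65 ± 0.34 and Fyn, a Src-family kinase, by -1.57 ± 0.39. Fyn was -1.02 without control 2 and did not pass (adjusted p = 0.128).

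Of 7 tested smooth muscle markers 3 fell, with a median of -0.75: Flna, filamin A, changed by -1.72 ± 0.22 and Acta2, smooth muscle actin, by -0.85 ± 0.17. Of 26 tested genes of fibroblasts and matrix 6 fell, among them Col6a3 (-1.30 ± 0.20), a collagen, and Fbn1 (-1.07 ± 0.22), fibrillin. Fbn1 did not pass without the libraries over 50% acinar (log2 -0.79, edgeR adjusted p = 0.075). Under scaling by library totals alone, 1 of the 7 smooth muscle markers and 1 of the 26 matrix genes fell. Neither Acta2 nor Fbn1 passed there (edgeR adjusted p = 0.274 and 0.206). Summed over 7 markers, smooth muscle was at 2031 to 3553 CPM in controls and 1302 to 2951 CPM after exposure, and the 27 stromal markers were at 2212 to 3471 CPM and 1302 to 2598 CPM. Lymphocyte (0 of 9), endothelial (0 of 6) and enteric neuron, fat and blood markers (0 of 4) had no member that passed. Their medians were -0.77, -0.39 and -0.19. Over all tested probes 5.47% were lower, and lists this short can hold none at that share. With the acinar share as a covariate 1 lymphocyte marker, Gzma, fell (log2 -1.46, edgeR adjusted p = 0.0203). Cd74, H2-Aa, Fcgr3, Fyn and Flna passed with the acinar share as a covariate as well, and the part of other cell types in their falls was not tested.

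St3gal2, a sialyltransferase, was at 34.3, 58.3, 24.3, 32.2 and 41.4 CPM in controls and between 2.62 and 19.9 CPM in the 28 exposed libraries, with no overlap, and changed by -1.80 ± 0.38. Under scaling by library totals alone St3gal2 was -1.45 and did not pass (edgeR adjusted p = 0.106). Ero1b, an oxidase that forms disulfide bonds in secretory cells such as those of the pancreas, stood at 128.0, 78.1, 56.2, 145.6 and 762.9 CPM in controls and at medians between 14.5 and 35.2 CPM in the exposed groups. Its change of -2.60 ± 0.47 was -0.74 with the acinar share as a covariate (adjusted p = 0.180) and -1.42 without control 5 (adjusted p = 0.0719). Nucb2, nucleobindin 2, behaved likewise: -1.78 ± 0.46, then -0.15 with the covariate (adjusted p = 0.944). Slc1a2, a glutamate transporter, rests on control 5 at 48.6 CPM, since 3 of the 5 controls were at 0 and 1 at 3.08 CPM; without control 5 it did not pass (adjusted p = 0.203).

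The endoplasmic reticulum list had 1 rise, Creb3l3, and 4 falls of 14 tested, among them Xbp1 (-0.74 ± 0.19), a regulator of secretory capacity, Sel1l (-0.71 ± 0.22) and Canx (-0.40 ± 0.11), which serve protein quality control; with the acinar covariate 2 rose and 0 fell. Of 19 tested acinar markers, 2 fell, Reg1 (-1.29 ± 0.37) and Zg16 (-1.29 ± 0.33), with a median of -1.84; goblet cells also express Zg16. Neither passed with the acinar covariate (Reg1 -0.11, adjusted p = 0.910; Zg16 -0.01, adjusted p = 0.996) or without control 5 (adjusted p = 0.167 and 0.139). Of 15 tested heat shock genes 2 fell, beside 5.47% lower over all tested probes: the small heat shock proteins Hspb1 (-0.84 ± 0.23) and Cryab (-1.45 ± 0.42). Cryab was -0.83 with the covariate (adjusted p = 0.376), -0.67 without libraries over 50% acinar (adjusted p = 0.550) and -0.75 without control 5 (adjusted p = 0.380), and Hspb1 did not pass without control 3 (adjusted p = 0.0629). Of 67 tested genes of cell cycle and DNA replication 4 fell and 0 rose, beside 5.47% lower and 7.44% higher over all tested probes, so the share that fell is near the background. They were Ccnd2, a G1 cyclin (-0.995 ± 0.18), Cdk4, its kinase (-0.56 ± 0.15), Mcm7, of the replicative helicase (-0.73 ± 0.21), and Kif23, a kinesin of cytokinesis (-1.69 ± 0.55). The median of the list was -0.16, and 0.18 under scaling by library totals alone, where 0 passed; 2 fell with the acinar covariate, under which Mcm7 and Kif23 did not pass, and 1 fell without control 5.

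Of 27 tested p53 and DNA damage genes 2 rose, Cdkn1a, a cell cycle inhibitor (0.47 ± 0.16), and Plk3, a stress kinase (0.80 ± 0.27), and 1 fell, Gadd45g (-1.10 ± 0.29), shares no higher than the 7.44% and 5.47% of all tested probes; 0 passed with the acinar covariate. Among 11 immediate early genes Dusp6 and Fos rose by 1.06 ± 0.25 and 0.82 ± 0.20, and Klf2 changed by -0.92 ± 0.28. Without libraries over 50% acinar none of these 3 passed (Dusp6 adjusted p = 0.0786, Fos 0.0811), and Klf2 was -0.53 with the covariate (adjusted p = 0.396) and -0.62 without control 5 (adjusted p = 0.209). Of 29 tested inflammation genes 1 fell, Rela (-0.65 ± 0.21), and of 19 lipid and sterol genes 1 rose, Acat2 (0.71 ± 0.20), and 1 fell, Elovl5 (-0.78 ± 0.26), all below the shares over all tested probes. Rela and Acat2 did not pass with the covariate (adjusted p = 0.0895 and 0.103), nor Elovl5 without any 1 of controls 1, 2, 3 and 4. Several of these pooled calls were not shared by both compounds. Cdkn1a, Plk3, Rela, Acat2 and Elovl5 did not pass in the same direction for the captan mean. Gadd45g and Klf2 did not do so for the folpet mean. For the captan mean 2 endoplasmic reticulum genes, 1 acinar marker and 4 matrix genes fell. The folpet mean gave 5, 2 and 7, and the pooled value 4, 2 and 6. By edgeR's test 0 of 17 apoptosis and 0 of 5 WNT and stem cell genes passed; Ctnnb1, beta-catenin, was at 0.16 ± 0.13 (adjusted p = 0.494). A second probe did not pass for Ccnd2 (-0.91), Xbp1 (-1.18), Sel1l (-0.22), Acat2 (-0.08), Cdk4 (-0.05) or Aldh3a2 (-0.78 ± 1.42, against a rise in the first), and for Nr1i3 it did (1.24 ± 0.21).

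**Figure D2:**
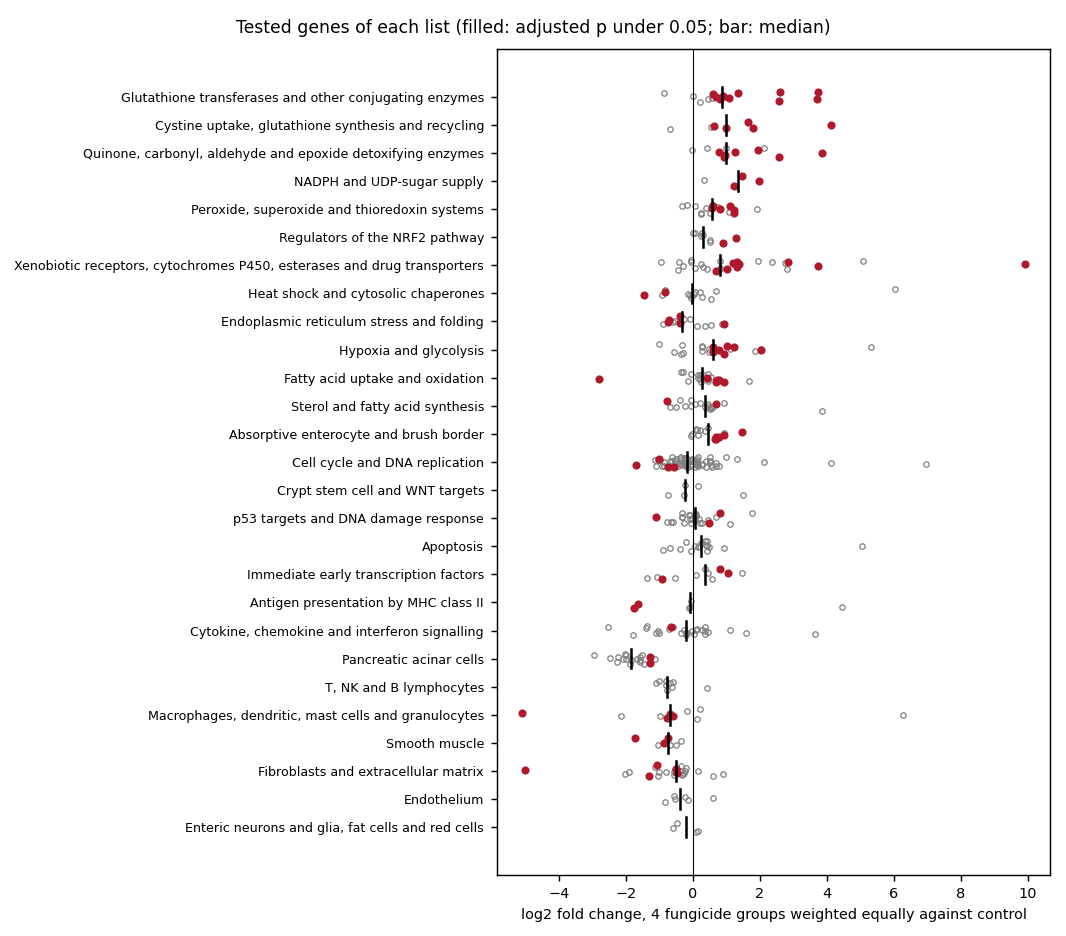
Log2 fold change of each tested gene against control, with the 4 captan and folpet groups weighted equally, by list; filled points passed (adjusted p under 0.05) and the bar is the list's median. Points lie mainly right of 0 in the conjugation list (10 of 16 rose) and left of 0 in the matrix list (6 of 26 fell); the point farthest right, Cyp2a5, is a fitted value of a gene at 0 in all controls and no measured fold, and lists with fewer than 4 tested genes are not drawn.

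The values of the 4 groups lay on 1 side of control for all 184 shared probes, a direction that choosing probes by both compound means largely sets. For Gsta2 the log2 changes were 3.37 in Captan 6000ppm, 3.67 in Captan 12000ppm, 3.61 in Folpet 6000ppm and 4.27 in Folpet 16000ppm. For Cbr3 they were 3.25, 4.40, 2.99 and 4.75, and for Slc7a11 3.27, 4.60, 3.63 and 5.003 in the same order. The higher doses of captan and folpet differ, so these values stand side by side only. The joint edgeR test of differences among the 4 groups, in which compound and dose are not told apart, passed for 42 probes (1.65%), of which 10 were shared probes. They included Osgin1, at 0.49, 1.28, 0.17 and 1.63 in the same order (adjusted p = 0.000138), Aldoa, at 0.81, 0.89, 0.80 and 1.57, and Prdx1, at 0.61, 0.70, 0.64 and 1.29.

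**Figure D3:**
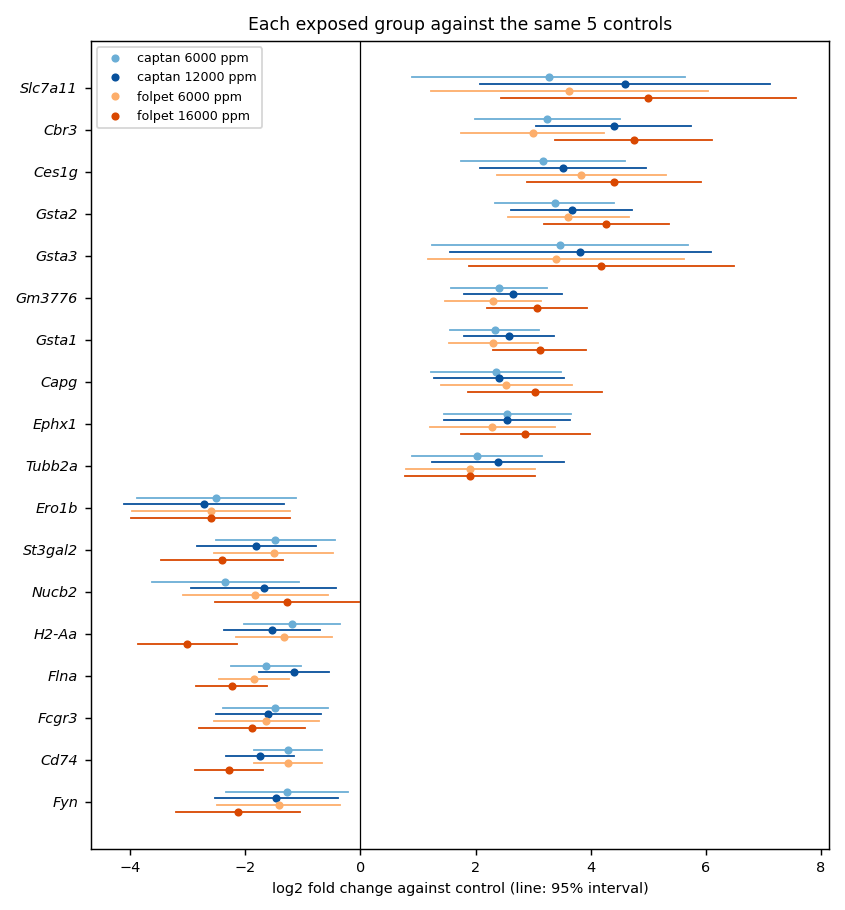
Log2 fold change of each exposed group against the same 5 controls, with 95% intervals as lines, for the genes with the largest shared rises and falls; Cyp2a5, Hsd3b3 and Slc1a2 are left out because a group was at 0. All 4 points lie right of 0 for rises such as Gsta2 and left of 0 for falls such as Cd74.

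At 6000 ppm, the only dose both compounds share and so the only pair compared, 4 probes differed (0.157%; 130 at an unadjusted p under 0.05), all 4 higher with folpet. Ddit4, an inhibitor of mTOR signalling, was at lowest, median and highest levels of 4.42, 30.5 and 43.6 CPM in Captan 6000ppm and 44.6, 133 and 186 CPM in Folpet 6000ppm, with no overlap. The controls held 37.2, 24.5, 12.2, 41.5 and 156.7 CPM. The captan minus folpet difference was -2.22 on the log2 scale (95% interval -3.10 to -1.35; edgeR adjusted p = 0.00811). Tsc22d3, a glucocorticoid-induced leucine zipper protein, was at 717, 1046 and 1500 CPM with captan and 1989, 2326 and 2525 CPM with folpet, a difference of -1.11 (interval -1.45 to -0.78; adjusted p = 4.84e-05). The groups did not overlap, and the controls ranged from 648 to 1142 CPM. A second Tsc22d3 probe gave -0.997 and did not pass (adjusted p = 0.437). Btg2, an antiproliferative gene, differed by -0.99 (interval -1.40 to -0.59; adjusted p = 0.00867), and Nfkbia, the inhibitor of NF-kB, by -0.64 (interval -0.91 to -0.37; adjusted p = 0.0122); both ranges overlapped between the compounds. In Folpet 16000ppm these genes were at log2 changes against control of 0.24 for Ddit4, 0.66 for Tsc22d3, -0.07 for Btg2 and 0.22 for Nfkbia, beside 1.24, 1.28, 0.80 and 0.39 in Folpet 6000ppm.

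**Figure D4:**
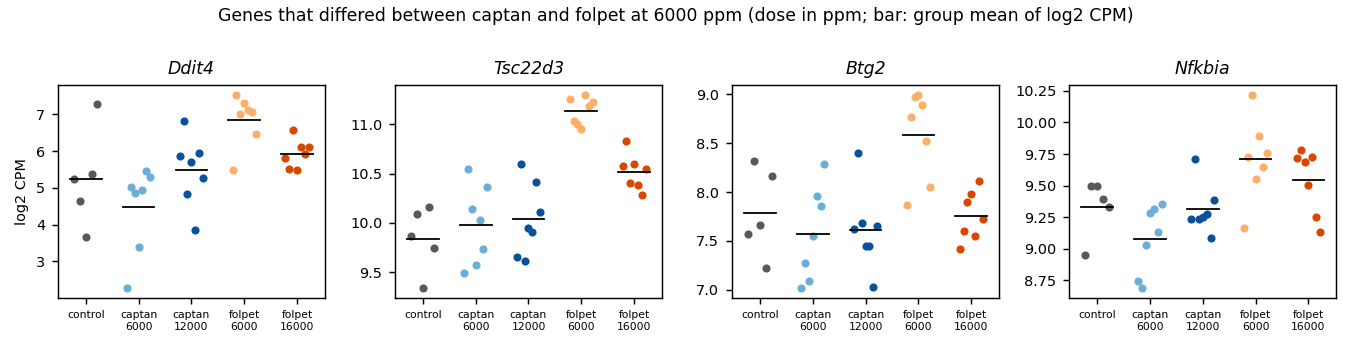
Level of the 4 genes that passed between captan and folpet at 6000 ppm, as log2 CPM in each library on the vertical axis, by group; points are libraries and the bar is the group mean of log2 CPM. Folpet 6000ppm lies above Captan 6000ppm in every library for Ddit4 and Tsc22d3.

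Of the 184 shared probes, 0 passed between captan and folpet at 6000 ppm by edgeR's test, beside 0.157% of all tested probes. The 95% interval of the difference lay within 1 log2 of 0 for 154 of them (83.7%), against 41.2% of all tested probes. The median width to each side was 0.41 and 0.92. The shared probes were chosen with these same libraries, as those that passed for both compound means. That choice favours narrow intervals and like values, so these shares are no independent evidence that the compounds act alike. For Gsta2 the captan minus folpet difference was -0.24 (95% interval -1.06 to 0.59), for Gsta1 0.03 (-0.62 to 0.68), for Cbr3 0.26 (-0.75 to 1.26) and for Cd74 0.01 (-0.53 to 0.55). Intervals were wider for Slc7a11, at -0.36 (-2.18 to 1.46), Ces1g, at -0.66 (-1.80 to 0.47), and Cyp2a5, at -0.73 (-2.79 to 1.34). A difference of more than 2-fold between the compounds is therefore inside the interval for Slc7a11, Ces1g, Cyp2a5, Cbr3 and Gsta2.

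**Figure D5:**
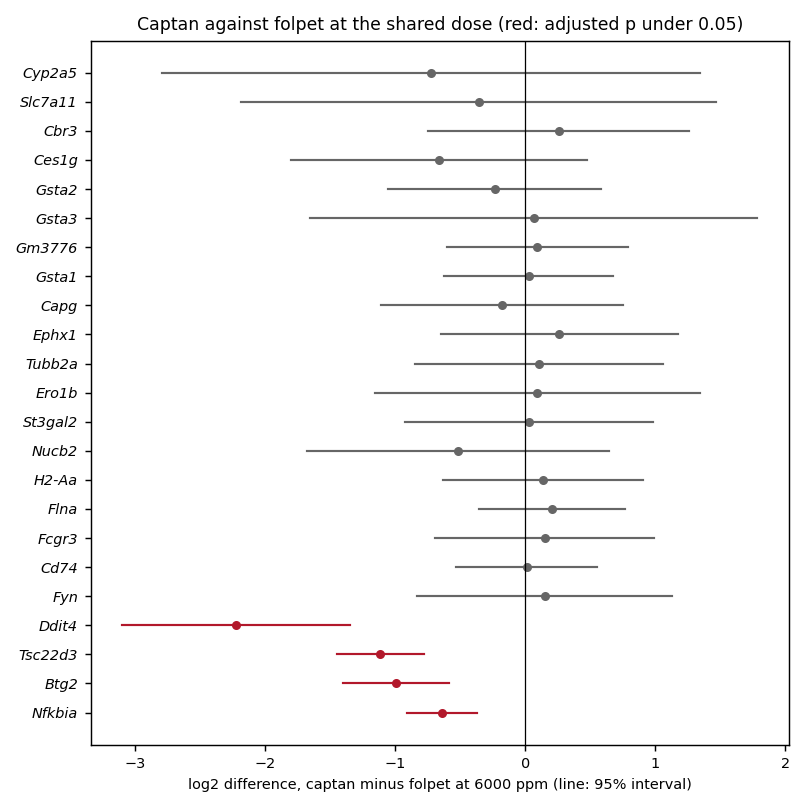
Difference captan minus folpet at 6000 ppm in log2, with 95% intervals as lines, for shared rises and falls and the 4 genes that passed; Hsd3b3 and Slc1a2 are left out. The shared genes have intervals that include 0, and the 4 red genes, Ddit4 to Nfkbia, lie left of 0.

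Against Cr(VI), which uses no control library, 214 probes passed (8.42%), with 143 higher (5.63%) and 71 lower (2.79%) in the pooled fungicide groups; of the 184 shared probes, 63 passed. Agent and route both differ in this comparison. Cyp2a5 was at 0 in all 7 Cr(VI) libraries, and the pooled fungicide mean was at least 27.8-fold above their floor of 3 counts per library, with the same limit on low counts. Slc7a11 was 4.74 higher on the log2 scale, Ces1g 4.20, Cbr3 3.83 and Gsta2 2.72. Lowest, median and highest levels in Cr(VI) were 54.9, 117 and 187 CPM for Cbr3 and 237, 442 and 729 CPM for Gsta2. Lower with the fungicides were St3gal2 (-1.16), Ero1b (-1.58) and Nucb2 (-1.43). The difference for Capg was -0.33 (adjusted p = 0.771), with 79.9 to 364 CPM in Cr(VI), and for Bnip3 -0.07 (adjusted p = 0.966). Cd74, at 2666 to 5523 CPM in Cr(VI), differed by 0.31 (adjusted p = 0.498), and Flna by -0.09 (adjusted p = 0.913). The Cr(VI) libraries held an acinar share of 53.2% ± 25.1 (SD, n = 7), and with it as a covariate 89 probes passed; without Cr(VI) replicate 3, 123 passed.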

How the data were processed

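The data were 40 TempO-Seq libraries from duodenum. The authors deposited a table of raw whole-number counts, a single value for each probe and library; per the submitters' processing notes, bcl2fastq 2.17.1.14, Bowtie (no version given) and the build mm9 were used. The sources used here give no probe positions. Groups came from the labelled treatment. Replicates were numbered by accession, as names alone, and no library duplicated another. Of all values 28.5% were 0, while 1.01% of values above 0 lay from 1 to 5, so a 0 says little about a low transcript.

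Symbols were matched to a RefSeq gene table, 2601 directly, 97 by a synonym and 58 not. With R 4.3.3 and edgeR 4.0.16, filterByExpr removed low probes (at least 10 counts, 15 in total, to stay), and libraries were scaled by TMM and fitted with a robust quasi-likelihood model of 1 mean per group on all 40 libraries (34 residual degrees of freedom); the script was tested on simulated data. Each probe was tested by itself, and of 2 probes of a symbol the one with more counts is named. SE is the log2 change divided by the square root of F. Floors cover counting error only, since PCR reads without molecular identifiers are not independent molecules.

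Named genes were the 12 largest rises and 10 largest falls that passed for the pooled, captan and folpet means, up to 4 members of each pathway list and 2 of each marker list with the smallest p that passed (or the most abundant member), and all that passed at 6000 ppm. A few of these are not reported here. The members and the 29 lists were chosen with earlier results of these data known. Alternatives covered scaling, the low-count filter, the acinar share as a covariate, libraries left out, the samples fitted, limma-voom (limma 3.58.1), DESeq2 1.42.0 and single dose levels.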

Additional observations from a re-analysis of the deposited data

Results flagged for a closer look

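Of 76 gene or share and group combinations with 5 or 7 libraries tested for a library far from its group by Dixon's test, 6 had one; chance gives about 1 in 20. Values are log2 CPM unless stated, and a library at 0 counts has the value -1.263 on this scale. Gsta2 was low in Captan 6000ppm replicate 2, at 8.736, and in Folpet 16000ppm replicate 2, at 11.5. Gm3776 was low in Captan 6000ppm replicate 2, at 12.32. That library was also the shallowest, with an acinar share of 34.97%; the part of either in these values was not tested. Cyp2a5 was at -1.263 in Folpet 6000ppm replicate 4. Captan 12000ppm replicate 7 had an acinar share of 54.25%, against 12.5% in the next highest library of its group, and an Ero1b level of 7.244, the highest of its group; the part of the share in that level was not tested.

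Captan and folpet at 6000 ppm differed by a test of the difference itself for 4 genes, with captan minus folpet at -2.223 for Ddit4, -1.114 for Tsc22d3, -0.9943 for Btg2 and -0.6393 for Nfkbia (log2).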

How the results depend on the processing

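Each alternative changed 1 named choice; DESeq2 also brought its own size factors, and leaving out libraries or groups also changed which probes were tested (2406 to 2620). Of the 79 genes chosen by the rule that passed in the pooled comparison, all 79 passed again with any 1 exposed library left out, 76 with DESeq2, 66 with limma-voom, 59 with the acinar share as a covariate, 50 without libraries over 50% acinar, 48 under library totals alone and 61 without control 5. Gadd45g turned to 0.13 without libraries over 50% acinar. Scaling by library totals alone, which moved the median pooled change from -0.03 to 0.23, gave 94 pooled probes (80 higher, 14 lower), 93 for captan, 62 for folpet, 1 at 6000 ppm, 5 among the 4 groups and 431 against Cr(VI) (419 higher, 12 lower). DESeq2's size factors gave 157 higher and 168 lower in the pooled comparison and 106 and 103 against Cr(VI). With the acinar covariate 193 passed pooled, 96 for captan and 89 against Cr(VI). Without libraries over 50% acinar the numbers were 188 pooled, 113 for captan, 10 at 6000 ppm, 71 among the groups and 45 against Cr(VI), and the acinar difference was -16.2. At 6000 ppm and among the groups, fitting only the compared groups gave 11 and 88, limma-voom 13 and 67, and DESeq2 13 and 96. Only the 6000 ppm groups gave 208 pooled probes. The cause was not tested for any of these. Leaving out 1 library gave 228 (without control 5) to 355 pooled, 168 to 240 for captan, 244 to 304 for folpet, 3 to 6 at 6000 ppm, 32 to 55 among the groups, 123 to 228 against Cr(VI) and -36.9 to -22.8 points of acinar share. No paired analysis was possible because the labels carry no replicate numbers.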

Other observations

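Among the 42 probes that differed among the 4 exposed groups were genes that no rule above named and that were picked here after their values were seen. Fkbp5, a co-chaperone induced by glucocorticoids, was at 3669 to 5832 CPM in Folpet 6000ppm, above every library of the other exposed groups and of the controls, which held 842 to 2770 CPM in Captan 6000ppm, 330 to 2525 CPM in Captan 12000ppm, 772 to 1903 CPM in Folpet 16000ppm and 788 to 1793 CPM in controls (edgeR adjusted p of the joint test 5.66e-05). Captan minus folpet at 6000 ppm was -1.36 for Fkbp5 and did not pass (adjusted p = 0.0873). Hspa1b, an inducible heat shock protein, had medians of 24.4 and 39.7 CPM in Captan 6000ppm and Folpet 6000ppm, below the control median of 168.5 CPM, and 622 and 971 CPM in Captan 12000ppm and Folpet 16000ppm (joint test, edgeR adjusted p = 0.0012). Its pooled change of 0.69 ± 0.64 did not pass (adjusted p = 0.567). A near-identical copy of this gene may share its signal.

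Cyp2c29, a cytochrome P450, had medians of 392 and 1052 CPM in Captan 6000ppm and Captan 12000ppm, and 103 and 98.7 CPM in Folpet 6000ppm and Folpet 16000ppm, against 10.4 CPM in controls (joint test, edgeR adjusted p = 0.00811). The difference of captan minus folpet at 6000 ppm was 2.16 and did not pass (adjusted p = 0.454).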
